A study of Homo sapiens with 8 samples.

Results

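The leukotriene and prostaglandin enzymes examined here are 10 genes whose products turn arachidonic acid into leukotrienes, prostaglandins and thromboxane, or break prostaglandins down. They were taken as the rows of the deposited count table whose gene symbol equals ALOX5, ALOX5AP, LTA4H, LTC4S, PTGS1, PTGS2, PTGES, HPGDS, HPGD or TBXAS1. Of the 10 genes, 8 had a row among the 23562 rows of the table, and PTGES and HPGD were not analysed here. The values are RNA levels, and no lipid or enzyme activity was measured.

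Arachidonic acid is cut from membrane phospholipids by phospholipases and then enters one of several branches. In the leukotriene branch, the lipoxygenase ALOX5, helped by the nuclear membrane protein ALOX5AP (FLAP), makes the unstable epoxide leukotriene A4, which LTA4H hydrolyses to the neutrophil attractant leukotriene B4 and LTC4S joins to glutathione to give the cysteinyl leukotrienes. In the prostanoid branch, the cyclooxygenases PTGS1 (the constitutive form) and PTGS2 (the inducible form) make prostaglandin H2, from which TBXAS1 makes thromboxane, HPGDS makes prostaglandin D2 and PTGES makes prostaglandin E2. HPGD inactivates prostaglandins. Neutrophils, monocytes, mast cells and platelets are known for different parts of this machinery.

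All libraries came from the human cell line OCI-AML5, established from acute myeloid leukemia, and were transduced with lentiCRISPRv2, a lentiviral vector that carries Cas9 and a guide RNA. The sgControl group held 4 libraries, each with another non-specific guide, and the sgCEBPD group held 4 libraries, each with another guide against CEBPD, the gene of the transcription factor C/EBP delta. Polyadenylated RNA was sequenced, and library totals lay between 10217751 and 11521209 counts. The labels give no time after transduction and do not say whether cells were cloned or pooled, so a p-value here reflects the spread between guides, which may be technical.

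Levels are given in CPM, counts scaled to the library size after scaling of library sizes by TMM. CEBPD itself stood at 203 to 217 CPM in the sgControl libraries and at 107, 209.6, 189.8 and 165 CPM in sgCEBPD 1 to 4, so its RNA was near the control level in some sgCEBPD libraries. A small insertion or deletion can leave RNA in place, so these values do not check the edit. All 9 markers of a leukemia and myeloid progenitor list had counts in every library. Among them were CD33 (99.1 to 143 CPM), SPI1 (297 to 422 CPM) and PTPRC (306 to 918 CPM). KIT (2.39 CPM), CD34 (7.65 CPM), MPO and FLT3 were lowest in sgCEBPD 3. The library sgCEBPD 3 stood apart from the rest: its correlation with other libraries, across genes, was at most 0.931, against at least 0.972 among the other 7. The members are therefore described over all 8 libraries, over 7 without sgCEBPD 3, and in sgCEBPD 3 alone.

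The promoter windows of 3 members are shown because they belong to the genes on which the results turn: PTGS2 and TBXAS1, with high levels in sgCEBPD 3, and ALOX5AP, with separate levels in the guide groups. Each is the window from 250 bases before to 50 bases after a RefSeq start site (build GRCh38.p14), written 5′ to 3′ on the strand of the gene. Capitals mark matches, on either strand, to TTGCNNAA, a short form of the sequence that C/EBP proteins bind, or to CCAAT.
PTGS2, chr1:186680374-186680673, minus strand: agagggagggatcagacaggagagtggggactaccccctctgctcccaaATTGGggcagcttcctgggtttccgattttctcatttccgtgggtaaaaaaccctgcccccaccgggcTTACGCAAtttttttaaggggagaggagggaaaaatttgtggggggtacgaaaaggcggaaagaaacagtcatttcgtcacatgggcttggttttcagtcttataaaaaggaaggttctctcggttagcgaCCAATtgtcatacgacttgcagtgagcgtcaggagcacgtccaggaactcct
TBXAS1, chr7:139829014-139829313, plus strand: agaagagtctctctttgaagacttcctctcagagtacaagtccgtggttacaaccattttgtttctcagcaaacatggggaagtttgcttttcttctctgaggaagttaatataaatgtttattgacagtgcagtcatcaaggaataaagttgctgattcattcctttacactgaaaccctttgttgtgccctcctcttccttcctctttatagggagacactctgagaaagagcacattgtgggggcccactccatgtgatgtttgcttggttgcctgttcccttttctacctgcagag
ALOX5AP, chr13:30713235-30713534, plus strand: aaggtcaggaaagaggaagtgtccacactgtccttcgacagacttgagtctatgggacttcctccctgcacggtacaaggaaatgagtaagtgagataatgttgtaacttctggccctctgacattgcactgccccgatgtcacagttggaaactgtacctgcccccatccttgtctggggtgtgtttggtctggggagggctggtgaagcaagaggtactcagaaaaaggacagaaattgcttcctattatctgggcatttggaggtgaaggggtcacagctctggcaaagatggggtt

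In the PTGS2 window, TTACGCAA matches TTGCNNAA on the other strand and begins 133 bases before the start site. The same window holds CCAAT matches that begin 201 and 2 bases before the start site. No match to either motif lies in the printed windows of TBXAS1 and ALOX5AP, or in those of LTA4H, LTC4S, HPGDS and PTGS1. The TBXAS1 window lies inside the annotated gene, which spans chr7:139777051-140020325. The LTA4H window (chr12:96035538-96035837) also lies inside its gene, chr12:96000828-96043520 on the minus strand. For both genes, the region before the annotated gene start was not searched. For comparison, 10.5% of the 35116 RefSeq promoter windows hold TTGCNNAA and 34.6% hold CCAAT. These are matches of letters, and no binding was measured.

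Among the members, LTA4H and PTGS1 had the highest RNA levels per exon length in control cells. Per kilobase of exon, the mean level over the 4 sgControl libraries was 11.5 ± 0.524 CPM for LTA4H, 10.3 ± 1.09 CPM for PTGS1 and 5.07 ± 1.46 CPM for LTC4S (SD, n = 4). The order of LTA4H and PTGS1 is not resolved, since their ranges (10.9 to 12.0 and 8.89 to 11.3 CPM per kilobase) overlap, whereas every LTC4S value (3.23 to 6.54) lay below both. ALOX5 followed at 0.353 ± 0.273, PTGS2 at 0.186 ± 0.0507, TBXAS1 at 0.123 ± 0.0741 and ALOX5AP at 0.0669 ± 0.0272 CPM per kilobase. The ranges of neighbours in this lower set overlap. HPGDS was lowest, with 0 counts in 3 sgControl libraries and 2 counts in sgControl 4. Control OCI-AML5 cells thus carried the RNA of the later leukotriene enzymes LTA4H and LTC4S at far higher levels than that of ALOX5 and ALOX5AP, which act before them.

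**Figure D1:**
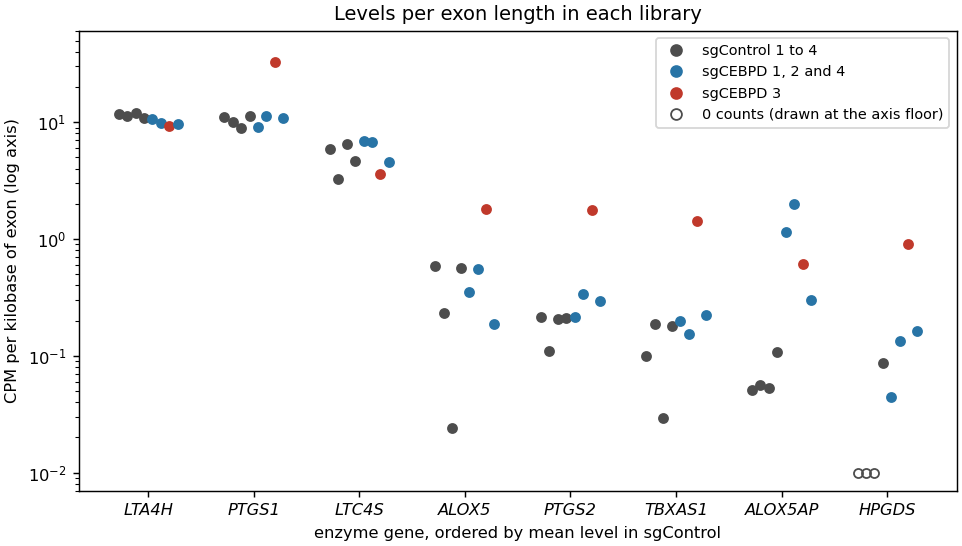
RNA level of the 8 members with a row, in CPM per kilobase of exon on a log axis, with 1 point per library. LTA4H, PTGS1 and LTC4S lie above 3 CPM per kilobase in all libraries, and sgCEBPD 3 stands at 32.9 for PTGS1 and at 1.80 for ALOX5.

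ALOX5AP, on chr13:30713478-30764426 (GRCh38), had more counts in every sgCEBPD library than in any sgControl library. The sgControl libraries held 1, 1, 1 and 2 counts (0.0875, 0.0964, 0.0906 and 0.184 CPM), and sgCEBPD 1 to 4 held 21, 36, 11 and 6 counts (1.97, 3.41, 1.05 and 0.520 CPM). The groups did not overlap, sgCEBPD 2 was highest, and sgCEBPD 3 lay within the range of the other sgCEBPD libraries. Over all 8 libraries, 74 counts against 5 give a ratio of 15.0, with an exact 95% interval of 6.13 to 47.4, and without sgCEBPD 3 the ratio was 16.8 (6.83 to 53.5). These intervals cover counting error only. Of all 23562 rows, 3.63% had no overlap with sgCEBPD higher, and 5.4% did without sgCEBPD 3.

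The filter on low counts removed ALOX5AP from both main fits, so it has no test there. With no filter, edgeR gave a log2 fold change of 3.79 (SE 0.67) over 8 libraries with an adjusted p of 0.107, and 3.96 (SE 0.67) without sgCEBPD 3 with an adjusted p of 0.00838. DESeq2 gave adjusted p-values of 0.00281 and 0.000851. In edgeR fits where leaving out a library let the gene through the filter, the adjusted p was 0.312 to 0.468 over 8 libraries without one of the sgControl libraries and 0.0588 without sgCEBPD 4. In the set without sgCEBPD 3, it was 0.00229 when sgCEBPD 4, the lowest sgCEBPD library, was also left out. In all these fits the gene passed the filter only through sgCEBPD libraries, since no sgControl library exceeded 0.184 CPM. The filter thus selected on the group where ALOX5AP was high, and these adjusted p-values lend no support. The result for ALOX5AP thus depends on the filter and the tool.

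LTA4H, on chr12:96000828-96043520, was lower in every sgCEBPD library. It stood at 87.1, 83.2, 88.4 and 79.9 CPM in sgControl 1 to 4 and at 78.1, 72.2, 67.9 and 70.8 CPM in sgCEBPD 1 to 4. The groups did not overlap, and sgCEBPD 3 was the lowest library; of all tested genes, 37.5% were lowest in it. The group means were 84.7 ± 3.85 and 72.3 ± 4.30 CPM (SD, n = 4 each), and the log2 fold change in edgeR was -0.22 (SE 0.07, adjusted p = 0.311). Without sgCEBPD 3 the log2 fold change was -0.20 (SE 0.06, adjusted p = 0.12). Neither passed the threshold of 0.05, and 4.5% of tested genes had no overlap with sgCEBPD lower (7.15% without sgCEBPD 3). Antisense genes share 7.92% and 1.65% of the LTA4H exon bases in the annotation, and the strand setting of the counting was not given in the sources used here.

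ALOX5, on chr10:45374176-45446119, varied more between control guides than most genes of its level. It stood at 2.19, 0.867, 0.0906 and 2.12 CPM in sgControl 1 to 4, which are 25, 9, 1 and 23 counts. The ratio of the highest to the lowest control was 24.1, against a median of 1.81 over 2043 tested genes whose control mean was within 2-fold, and 0.881% of those genes had a ratio as large. In sgCEBPD 1, 2 and 4 it stood at 1.31, 2.08 and 0.693 CPM, inside the control range. In sgCEBPD 3 it stood at 6.70 CPM (70 counts), 3.06 times the highest of the other libraries. The log2 fold change was 1.04 (SE 0.85, adjusted p = 0.633 in edgeR) over 8 libraries and 0.03 (SE 0.75, adjusted p = 0.99) without sgCEBPD 3.

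LTC4S, on chr5:179793980-179796647, did not separate the groups. It stood at 7.0, 3.86, 7.80 and 5.53 CPM in sgControl 1 to 4 and at 8.26, 8.05, 4.30 and 5.46 CPM in sgCEBPD 1 to 4. Here sgCEBPD 3 was among the low libraries but inside the control range. The log2 fold change was 0.11 (SE 0.28, adjusted p = 0.875) over 8 libraries and 0.25 (SE 0.24, adjusted p = 0.693) without sgCEBPD 3.

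**Figure D2:**
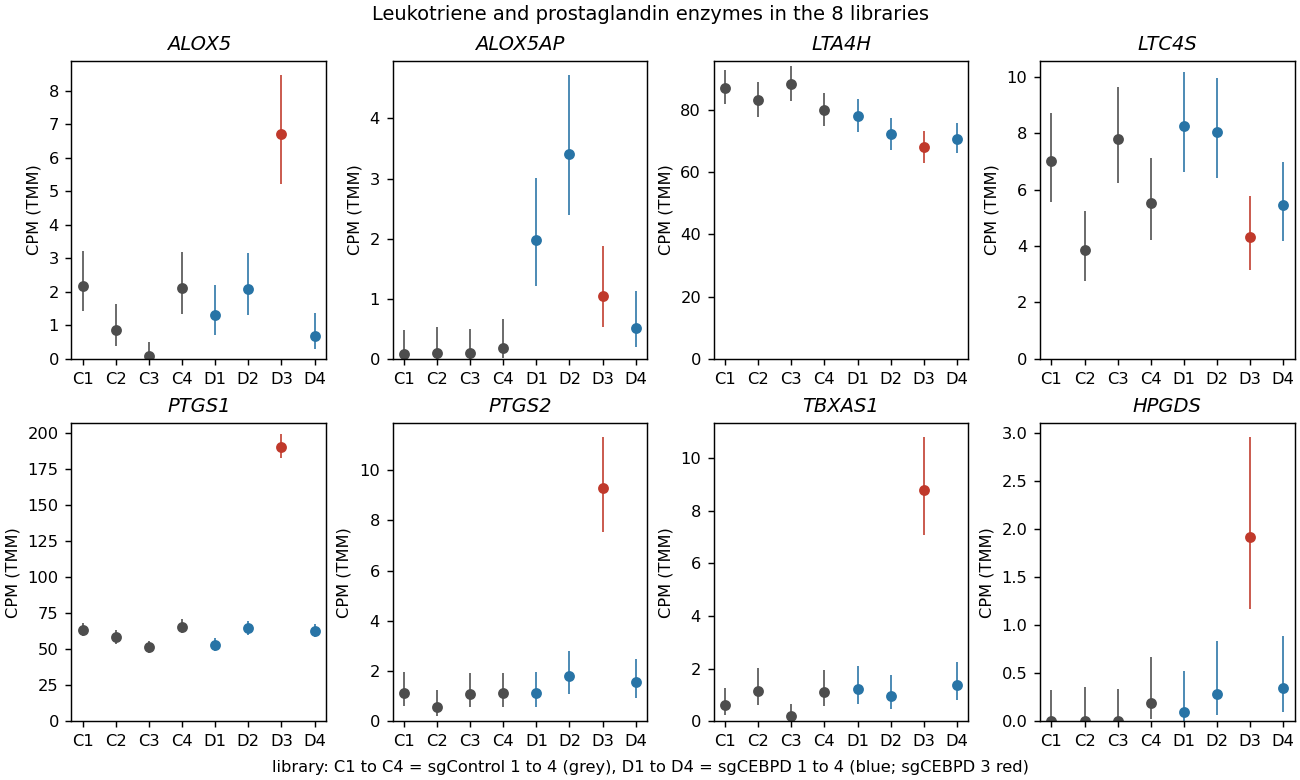
CPM of each member in each library on linear axes, with exact Poisson 95% intervals that cover counting error only. ALOX5AP is higher in all 4 sgCEBPD libraries, with at most 0.184 CPM in sgControl, whereas PTGS1, PTGS2, TBXAS1, ALOX5 and HPGDS are highest in sgCEBPD 3.

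On the prostanoid side, the cyclooxygenases and TBXAS1 were set apart in the single library sgCEBPD 3. PTGS1, on chr9:122370530-122395703, stood at 63.6, 58.3, 51.5 and 65.6 CPM in sgControl 1 to 4 and at 53.2, 64.8 and 62.6 CPM in sgCEBPD 1, 2 and 4. These 7 libraries differed little, and the sgCEBPD values lay within the control range. In sgCEBPD 3 the level was 190.7 CPM (1994 counts), 2.91 times the highest of the others. In bulk RNA, a change in the share of cells of a type and a change in RNA per cell cannot be told apart. The log2 fold change was 0.65 (SE 0.40, adjusted p = 0.547) over 8 libraries and 0.01 (SE 0.09, adjusted p = 0.986) without sgCEBPD 3.

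PTGS2, on chr1:186671791-186680427, the gene with the TTACGCAA match printed above, stood at 1.14, 0.578, 1.09 and 1.11 CPM in sgControl 1 to 4. It stood at 1.13, 1.80 and 1.56 CPM in sgCEBPD 1, 2 and 4, where sgCEBPD 1 overlapped the controls. In sgCEBPD 3 it stood at 9.28 CPM (97 counts), 5.16 times the highest of the others. Per kilobase, that was 1.76 CPM against 32.9 CPM for PTGS1, so the constitutive cyclooxygenase was the more abundant transcript in sgCEBPD 3 as in the controls. The log2 fold change was 1.82 (SE 0.72, adjusted p = 0.419) over 8 libraries and 0.60 (SE 0.31, adjusted p = 0.405) without sgCEBPD 3.

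TBXAS1, on chr7:139777051-140020325, stood at 0.612, 1.16, 0.181 and 1.11 CPM in sgControl 1 to 4, and at 1.22, 0.946 and 1.39 CPM in sgCEBPD 1, 2 and 4. Both groups overlapped, and the ratio of the highest to the lowest control was 6.38, which 4.09% of 1125 tested genes of like control level reached. In sgCEBPD 3 it stood at 8.80 CPM (92 counts), 6.35 times the highest of the others. The log2 fold change was 2.02 (SE 0.87, adjusted p = 0.434) over 8 libraries and 0.64 (SE 0.46, adjusted p = 0.579) without sgCEBPD 3.

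HPGDS, on chr4:94298535-94342876, was near the limit of detection outside sgCEBPD 3. Its counts were 0, 0, 0 and 2 in sgControl 1 to 4 and 1, 3, 20 and 4 in sgCEBPD 1 to 4, and the filter on low counts removed it from both fits. Taken as fewer than 3 counts, a count of 0 allows up to 0.262 to 0.289 CPM in those sgControl libraries. Levels were at most 0.184 CPM in sgControl and 0.347 CPM in sgCEBPD 1, 2 and 4, against 1.91 CPM in sgCEBPD 3. The ratio of summed counts was 14.2 (95% interval 3.57 to 123) over 8 libraries and 5.33 (1.06 to 51.6) without sgCEBPD 3, counting error only. With no filter, edgeR gave adjusted p-values of 0.475 and 0.444.

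Of the 8 members with a row, 6 were tested in each fit, and 0 of the 6 passed in edgeR over 8 libraries, where 0.0795% of 13838 tested genes did. Without sgCEBPD 3, 0 of 6 passed, where 2.01% of 14047 genes did. At an unadjusted p under 0.05, 3 of 6 members passed with 8 libraries (LTA4H, PTGS2 and TBXAS1), against 11.4% of all genes, and 1 of 6 (LTA4H) without sgCEBPD 3, against 15.5%. DESeq2 called ALOX5AP alone of the members in both sets. It called 301 of 23364 and 609 of 23483 genes with a p-value, which include genes without an adjusted p. Limma-voom, under the filter that removed ALOX5AP, called 0 of the 6 members it tested. The median log2 fold change of the 6 was 0.84 with 8 libraries and 0.14 without sgCEBPD 3, beside 0.00 over all genes tested in each fit.

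**Figure D3:**
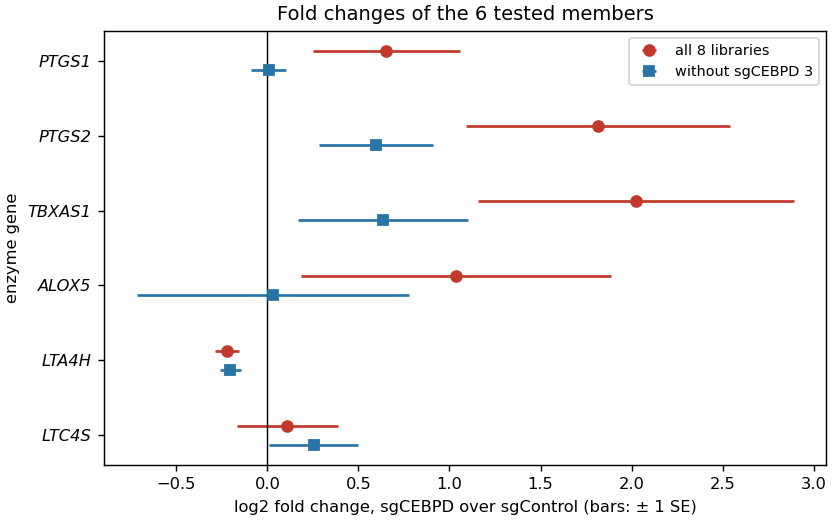
Log2 fold changes (sgCEBPD over sgControl) with 1 SE for the 6 tested members, over all 8 libraries (circles) and without sgCEBPD 3 (squares). The value of PTGS2 goes from 1.82 to 0.60 and that of TBXAS1 from 2.02 to 0.64 when sgCEBPD 3 is left out, while LTA4H stays at -0.22 and -0.20.

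In sgCEBPD 3, 5 of the 8 members with a row stood more than 2-fold above the highest of the other 7 libraries, after adding 1 CPM to both. These were PTGS1, PTGS2, TBXAS1, ALOX5 and HPGDS. Of all rows, 3% did so, and among the 6 tested members it was 4, against 3.13% of tested genes. No member was more than 2-fold below the others, as 1.73% of rows were. This is a description of 1 library and has no replicate check.

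Marker genes of several cell types also stood higher in sgCEBPD 3. For comparison, sgCEBPD 3 was above all other libraries in 6818 of all 23562 rows and below them in 5900. Of 10 monocyte and macrophage markers with a row, 9 were above all other libraries. LYZ was not, at 78.7 CPM against 37.1 to 190 CPM in the others. CD14 stood at 39.9 CPM against at most 0.0922 CPM in sgControl and 2.74 CPM in sgCEBPD 2. The summed monocyte list was 556 to 598 CPM in sgControl, 552 to 693 CPM in sgCEBPD 1, 2 and 4, and 867 CPM in sgCEBPD 3. The largest part of it was CSF1R, at 523 CPM in sgCEBPD 3 against at most 500 CPM in the others. FCGR3A, C1QA and C1QC were at 0 in every sgControl library. Of 5 mast cell and basophil markers, 4 were above all others and FCER1A was not. The sum of this list was 82.0 to 90.1, 55.1 to 90.9 and 612 CPM in the same order. Most of that came from the tryptases TPSAB1 (280 CPM) and TPSB2 (202 CPM), near-identical copies whose reads can be split between them, while HDC, which makes histamine, was at 0.287 CPM.

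The megakaryocyte and platelet sum (3 markers with a row) was 21.6 to 43.1, 27.7 to 40.3 and 59.3 CPM, with ITGA2B at 55.9 CPM and PPBP at 1.15 CPM in sgCEBPD 3. These 2 were above all other libraries. GP1BA was not, at 2.30 CPM against 2.99 to 3.85 CPM in sgControl and 2.25 to 2.77 CPM in sgCEBPD 1, 2 and 4. The eosinophil sum (4 markers) was 0.272 to 1.05, 0.188 to 0.867 and 4.02 CPM. The lymphoid sum (4 markers) was 8.96 to 10.5, 5.55 to 7.67 and 66.3 CPM, of which CD3D was 51.3 CPM in sgCEBPD 3. Of these markers, 3 were above all other libraries. CD79A was not, at 2.97 CPM against 5.11 to 5.95 CPM in sgControl and 1.69 to 2.77 CPM in sgCEBPD 1, 2 and 4. The single erythroid marker with a row, ALAS2, was at 0 to 0.363, 0 to 0.0939 and 0.0957 CPM. The progenitor and leukemia list went both ways, with 4 of 9 markers above and 4 below all other libraries. Above were PTPRC, SPI1, CSF3R and ITGAM (205 CPM against at most 21.3 CPM in the others). Below were KIT (2.39 CPM against at least 18.1 CPM), CD34 (7.65 against at least 13.5), MPO (11.5 against 12.4) and FLT3 (118 against 126). The sum of the list was 1276 to 1394, 1272 to 1545 and 2194 CPM. The part of these cell types in the values of PTGS1, PTGS2, TBXAS1, ALOX5 and HPGDS was not tested.

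Genes around the members were examined in 5 lists of 81 symbols (3 of them second names of a listed gene), of which 63 had a row and 46 were tested in each fit. With 8 libraries 0 of the 46 passed in edgeR (9 at an unadjusted p under 0.05, against 11.4% of all tested genes). Without sgCEBPD 3, CYSLTR1 rose and MGST1 and EPHX2 fell in edgeR. These calls depend on the tool and the filter. DESeq2 called 6 pathway genes over 8 libraries, with CYSLTR1 (adjusted p = 0.000146), PTGER4, PTGER3 and CMKLR1 higher and MGST1 (0.00408) and EPHX2 (0.0143) lower. Without sgCEBPD 3 it also called 6, with CYSLTR1 and PTGER4 higher and MGST1, EPHX2, LTB4R and ABCC1 (log2 fold change -0.39, adjusted p = 0.0338), an exporter of leukotriene C4, lower. With no filter on low counts, edgeR called 0 over 8 libraries and 6 without sgCEBPD 3, namely CYSLTR1, PTGER3 and CMKLR1 higher and MGST1, EPHX2 and LTB4R lower. Of all 23562 genes, it called 20 over 8 libraries with no filter. The count over all genes without sgCEBPD 3 is not given for that setting, so the 6 cannot be weighed against it. In edgeR with the filter, without sgCEBPD 3, the share of all tested genes called was 0.705% higher and 1.31% lower. DESeq2 called 301 genes over 8 libraries and 609 without sgCEBPD 3, of 23364 and 23483 genes with a p-value. Those totals include genes without an adjusted p, such as HPGDS. The pathway genes in DESeq2 numbered 47 and 46, in that order, counting only those with an adjusted p. These shares are therefore not comparable. With no filter, 63 pathway genes were tested. In edgeR with the filter, the median log2 fold change of the 46 was 0.04 over 8 libraries and 0.08 without sgCEBPD 3. Over all genes it was 0.00 in both.

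CYSLTR1, the receptor of cysteinyl leukotrienes, was higher in all sgCEBPD libraries. It stood at 70.9, 71.3, 76.8 and 71.2 CPM in sgControl 1 to 4 and at 97.9, 112, 125 and 94.8 CPM in sgCEBPD 1 to 4. The groups did not overlap, and sgCEBPD 3 was the highest. Without sgCEBPD 3 the means were 72.5 ± 2.83 (SD, n = 4) and 101.5 ± 9.16 CPM (SD, n = 3), and the log2 fold change in edgeR was 0.48 (SE 0.07, adjusted p = 0.00804). Over 8 libraries the log2 fold change was 0.57 (SE 0.10, adjusted p = 0.124). The rise without sgCEBPD 3 passed at 0.05 under every other tool, scaling, filter and left-out library that was run.

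Among 18 eicosanoid receptor genes fixed, 13 had a row and 8 were tested, and CYSLTR1 was the one of these 8 that passed in edgeR with the filter, without sgCEBPD 3. The receptors named next, other than CMKLR1 and FPR2, were picked after their values were seen. PTGER4, a prostaglandin E2 receptor coupled to cyclic AMP, stood at 21.5 to 30.1 CPM in sgControl and at 40.5, 64.6, 109.8 and 35.5 CPM in sgCEBPD 1 to 4, without overlap. It did not pass in edgeR over 8 libraries (log2 fold change 1.32, adjusted p = 0.272) or without sgCEBPD 3 (0.89, adjusted p = 0.13), and it passed in DESeq2 in both sets (adjusted p = 0.0102 and 0.000313). PTGER2, which binds the same ligand, stood at 49.4 to 60.1 CPM in sgControl and 52.2 to 55.9 CPM in sgCEBPD 1, 2 and 4, inside the control range, and at 66.0 CPM in sgCEBPD 3, above all others. LTB4R, the high-affinity receptor of leukotriene B4, stood at 37.9 to 43.3 CPM in sgControl, at 32.7, 32.4 and 25.5 CPM in sgCEBPD 1, 2 and 4, and at 54.0 CPM in sgCEBPD 3. Its log2 fold change without sgCEBPD 3 was -0.42 (adjusted p = 0.0576), and sgCEBPD 3 lay on the other side of the controls. LTB4R passed in that set with no filter (adjusted p = 0.0192) and in DESeq2 (0.0139), and over 8 libraries its log2 fold change in edgeR was -0.14 (adjusted p = 0.786).

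PTGER3, also a prostaglandin E2 receptor, had 1 count over the 4 sgControl libraries and stood at 0.939, 1.89, 4.59 and 0.26 CPM in sgCEBPD 1 to 4. CMKLR1, a receptor of chemerin and of a resolvin, also had 1 count in sgControl and ranged from 0.173 to 1.42 CPM in sgCEBPD 1, 2 and 4, with 9.18 CPM in sgCEBPD 3. For both, the sgCEBPD libraries all lay above the controls. The ratio of summed counts over 8 libraries was 81.9 for PTGER3 (95% interval 14.3 to 3274) and 121 for CMKLR1 (21.4 to 4831), counting error only. Without sgCEBPD 3 it was 44.0 (7.37 to 1790.3) and 32.0 (5.22 to 1316). The filter removed both genes from the main fits. With no filter, the adjusted p in edgeR was 0.215 for PTGER3 and 0.38 for CMKLR1 over 8 libraries, and 0.00956 and 0.0193 without sgCEBPD 3. In DESeq2 over 8 libraries it was 0.00174 and 0.00254. Neither gene was called by DESeq2 without sgCEBPD 3. FPR2, a receptor of formyl peptides and lipoxin, was at 0 in sgCEBPD 1, 2 and 4 and at 2.01 CPM in sgCEBPD 3.

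Among 20 other lipoxygenase and leukotriene handling genes, 14 had a row and 10 were tested. MGST1, a microsomal glutathione transferase, stood at 160, 141, 140 and 160 CPM in sgControl 1 to 4 and at 118, 95.1, 74.1 and 106 CPM in sgCEBPD 1 to 4. All sgCEBPD libraries lay below all controls, with sgCEBPD 3 lowest. Without sgCEBPD 3 the log2 fold change was -0.50 (SE 0.08, adjusted p = 0.015 in edgeR), and over 8 libraries it was -0.61 (SE 0.13, adjusted p = 0.181). When sgControl 1 was left out as well, the adjusted p was 0.056. DPEP1, a dipeptidase that cleaves leukotriene D4, stood at 84.3 to 127 CPM in the other 7 libraries and at 289 CPM in sgCEBPD 3.

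**Figure D4:**
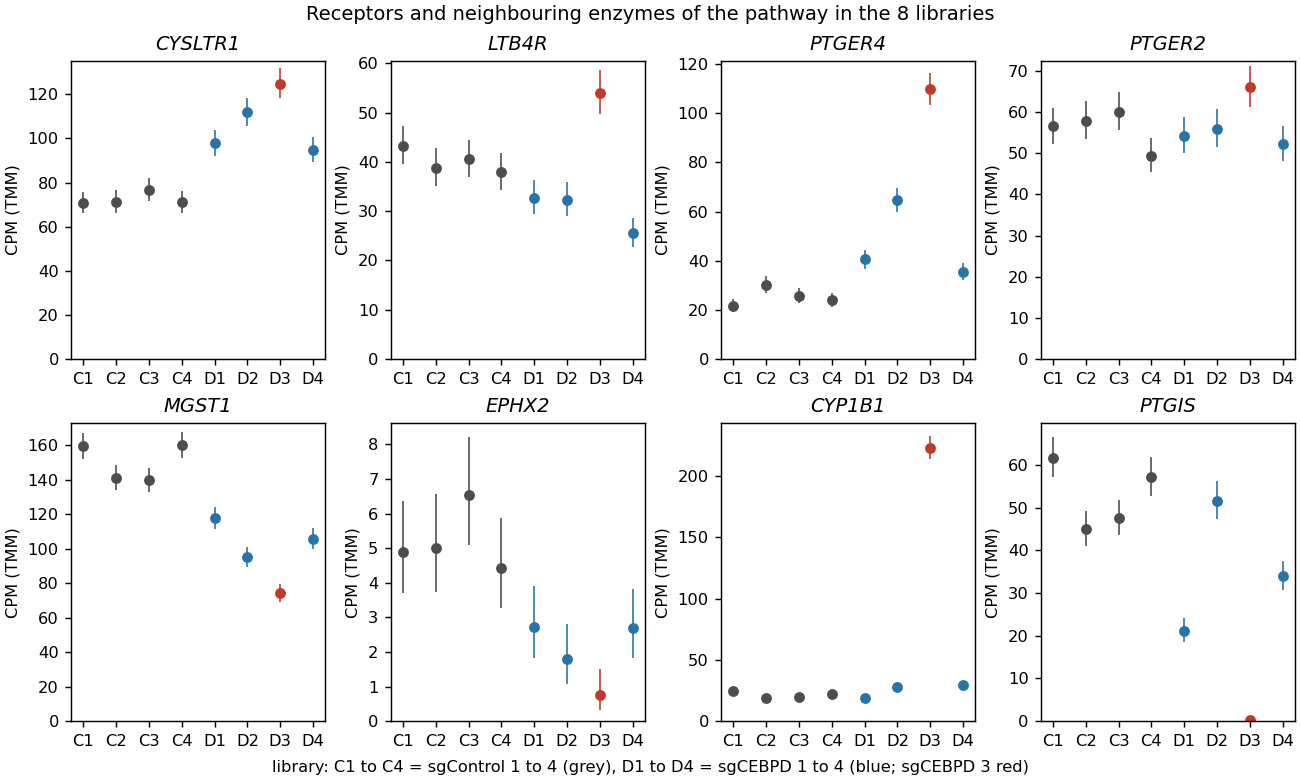
CPM of 4 receptors (CYSLTR1, LTB4R, PTGER4, PTGER2) and of 4 enzymes next to the members (MGST1, EPHX2, CYP1B1, PTGIS) in each library on linear axes, with exact Poisson 95% intervals for counting error. CYSLTR1 is higher and MGST1 and EPHX2 are lower in every sgCEBPD library, while CYP1B1 (223 CPM) and PTGIS (0.191 CPM) are set apart in sgCEBPD 3.

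The epoxide and omega-hydroxylase branch (7 genes fixed and with a row, 5 tested) held EPHX2, the soluble epoxide hydrolase, which turns epoxides of arachidonic acid into diols. EPHX2 stood at 4.90, 5.01, 6.53 and 4.43 CPM in sgControl 1 to 4 and at 2.72, 1.80, 0.765 and 2.69 CPM in sgCEBPD 1 to 4, again without overlap. Its log2 fold change was -1.12 (SE 0.22, adjusted p = 0.0346) without sgCEBPD 3 and -1.38 (SE 0.34, adjusted p = 0.262) over 8 libraries. The call without sgCEBPD 3 was lost with limma-voom (adjusted p = 0.0502) and when any of the 4 sgControl libraries, sgCEBPD 1 or sgCEBPD 2 was also left out (0.0527 to 0.106). CYP1B1, a cytochrome P450 that oxidises arachidonic acid and oestrogens, stood at 18.5 to 29.6 CPM in the other 7 libraries and at 223 CPM in sgCEBPD 3.

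Of 18 other prostanoid synthases, reductases and carriers, 14 had a row, 10 were tested and 0 passed in either fit in edgeR (0 at an unadjusted p under 0.05 in both). PTGIS, the prostacyclin synthase, stood at 44.9 to 61.7 CPM in sgControl, at 21.1, 51.6 and 33.9 CPM in sgCEBPD 1, 2 and 4, and at 0.191 CPM (2 counts) in sgCEBPD 3. In the same library TBXAS1, which uses the same substrate, was at its highest. PRXL2B, a prostamide and prostaglandin F synthase, stood at 7.47 to 10.8 CPM in the other 7 libraries and at 2.49 CPM in sgCEBPD 3. AKR1C2, an aldo-keto reductase with near-identical relatives, was at 1.05 CPM in sgCEBPD 3 and at 0 in all others. ABCC4, an exporter of prostaglandins and cyclic nucleotides, had the lowest p of this list without sgCEBPD 3, with a log2 fold change of 0.19 (adjusted p = 0.364).

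On the supply side, 15 of 18 arachidonate release and reacylation genes had a row, and in 1 of them sgCEBPD 3 stood more than 2-fold outside the other libraries. That gene, PLA2G7, which hydrolyses platelet-activating factor, was at 2.20 CPM in sgCEBPD 3 and at 0 in all others. Of the 13 tested, 0 passed in edgeR in either fit. At an unadjusted p under 0.05, 3 passed over 8 libraries and 5 without sgCEBPD 3, against 11.4% and 15.5% of all tested genes. PLA2G15, a lysosomal phospholipase, had the lowest p without sgCEBPD 3, at 25.7 to 29.2 CPM in sgControl and 31.6, 34.0 and 33.9 CPM in sgCEBPD 1, 2 and 4 (log2 fold change 0.25, adjusted p = 0.118). In sgCEBPD 3 it stood at 56.1 CPM.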

How the data were processed

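The deposited table holds raw gene counts, 1 column per library, which the authors had not normalised. The submitters' processing notes list HISAT2, FastQC, DESeq2 and the build hg38. How reads were counted, with which strand setting and annotation, is not given in the sources used here. Each column was assigned through its library name.

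The tests were run in R 4.3.3 with edgeR 4.0.16 (filterByExpr, TMM, robust quasi-likelihood test, group as the only term), over all 8 libraries and over 7 without sgCEBPD 3. Benjamini-Hochberg adjustment covered every tested gene, and the threshold was 0.05. Functions were tested on simulated data. Printed CPM use the TMM factors of all 8 libraries. The SE is the absolute log2 fold change over the square root of F. Alternatives were DESeq2 1.42.0, limma-voom (limma 3.58.1), other scalings and filters, the guide number as a block, libraries left out and a threshold of 0.01. Gene positions and exon lengths came from GENCODE release 29 (GRCh38), and promoter windows from RefSeq (GRCh38.p14), in which 9 of the 10 members had a window.

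The members, the gene and marker lists and the separate treatment of sgCEBPD 3 were chosen with earlier results of these data known. Of each pathway list, the named genes were those past the threshold in either fit or else the one with the lowest p without sgCEBPD 3, and up to 3 for which sgCEBPD 3 lay more than 2-fold outside the other libraries. Receptors outside this rule are marked as such in the text, and ABCC1 was named for its DESeq2 call. The counts of pathway genes called in DESeq2 and with no filter were added after seeing the data. The values of 1 marker are not reported here.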

Additional observations from a re-analysis of the deposited data

Results flagged for a closer look

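In 18 of 42 groups of 4 values examined (the members, CEBPD and the named genes in each guide group), 1 library lay far from the other 3, by the ratio of its gap to the nearest value to the whole range. For continuous, normally distributed values, chance alone gives about 1 in 20, or 2.1 groups. The library was sgCEBPD 3 in 11 of the 18 groups. The 1 in 20 does not hold for named genes chosen for their distance in that library. Nor does it hold for groups with 0 counts in all libraries but 1, where the ratio is always 1. These include HPGDS in sgControl, FPR2 in both groups, and PLA2G7 and AKR1C2 in sgCEBPD. ALOX5AP in sgControl, with 5 counts in all, is likewise too sparse for it.

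Among the members, sgCEBPD 3 was set apart with 190.7 CPM of PTGS1, 9.28 CPM of PTGS2, 8.80 CPM of TBXAS1 and 1.91 CPM of HPGDS. Among the other genes it was set apart with 56.1 CPM of PLA2G15, 2.20 CPM of PLA2G7, 2.49 CPM of PRXL2B, 1.05 CPM of AKR1C2, 223 CPM of CYP1B1, 9.18 CPM of CMKLR1 and 2.01 CPM of FPR2. In the sgControl group, the distant values were 0.184 CPM of ALOX5AP and 0.184 CPM of HPGDS in sgControl 4 (2 counts each), 0.0922 CPM of CMKLR1 and 0.0922 CPM of FPR2 in sgControl 4 (1 count each), 0.578 CPM of PTGS2 in sgControl 2, 216.6 CPM of CEBPD in sgControl 1 and 76.8 CPM of CYSLTR1 in sgControl 3.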

How the results depend on the processing

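Of the 168 alternative values of the tested members' log2 fold changes, 155 kept their direction and 13 changed sign, none of them past the threshold before or after. The sign changes were in LTC4S over 8 libraries when a library was left out (-0.051 to 0.255), in ALOX5 without sgCEBPD 3 when another library was left out (-0.41 to 0.39) or under the replicate block, a term for the guide number (-0.37), and in PTGS1 without sgCEBPD 3 (-0.059 to 0.091 with a library left out, -0.062 with the replicate block, -0.00395 with library totals). Of the other named genes, ABCC4 (-0.094 to 0.188), DPEP1 (-0.052 to 0.730) and PRXL2B (-0.33 to 0.13) changed sign over 8 libraries, and DPEP1 without sgCEBPD 3 (-0.248 to 0.065), when a library was left out.

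The count of members called was 1 (ALOX5AP) with DESeq2 in both sets and, without sgCEBPD 3, 1 with no filter and 0 to 1 with another library left out (1 without sgCEBPD 4). In the fit without sgCEBPD 4, ALOX5AP passed the filter only through sgCEBPD libraries. The count was 0 with each library left out over 8 libraries. Over all genes, the 8-library count of 11 was 301 with DESeq2 (170 higher, 131 lower), 20 with no filter, 1 at an adjusted p under 0.01, 1 with the replicate block and 0 to 283 with a library left out. The 283 came from leaving out sgCEBPD 3 and the 0 in edgeR from leaving out sgCEBPD 2 (unadjusted p under 0.05 in 1345 genes). Each sgControl library, or sgCEBPD 1, brought it to 1 to 6 when left out. The 7-library count of 283 was 609 with DESeq2, 40 at an adjusted p under 0.01 and 66 to 312 with a library left out (66 without sgControl 1, and 139 to 152 without sgControl 3, sgControl 4, sgCEBPD 1 or sgCEBPD 2). The cause was not tested. Deviations of same-numbered guides from their group means correlated at -0.0812 to 0.0563. The sgCEBPD mean includes the distant library sgCEBPD 3, so these values do not settle whether the number pairs libraries. The replicate block ended 1 call named in the text, EPHX2 without sgCEBPD 3 (adjusted p = 0.0899).

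Depth limited ALOX5AP and HPGDS most, with 5 and 2 counts over the sgControl group.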
